A study of Mus musculus with 12 samples.

Results

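Trp53, the mouse gene for the transcription factor p53, was examined together with 9 genes counted among its growth-arrest and feedback targets: Cdkn1a, Mdm2, Mdm4, Ccng1, Btg2, Plk2, Zmat3, Phlda3 and Gadd45a. They were chosen by name, with earlier results of these data known. Each was found as 1 Ensembl gene, so that 10 of the 50686 genes in the table of liver transcripts are described. All 10 passed the filter on low counts, as did 14248 genes in all.

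The libraries came from ground livers of FVB/N mice that were 6 to 8 weeks old when given siRNA packed in lipid nanoparticles by tail vein. The dose was 0.5 mg/kg, stated as 1 injection in 5 days, and the livers were collected at day 9 or day 13. The groups were Eif3m siRNA and luciferase control siRNA at day 9, and Eif3m siRNA and luciferase control siRNA at day 13, with 3 libraries in each. One label calls the luciferase control scrambled, and all mice, controls included, received siRNA in nanoparticles. Eif3m codes for one of the proteins of eIF3, an initiation factor needed to bring small ribosomal subunits to mRNA. The labels do not say that the libraries of a group came from separate animals, and p-values therefore reflect the spread of these libraries, which may be technical.

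p53 is held at a low level in unstressed cells because Mdm2, a ubiquitin ligase, marks it for degradation, and because Mdm4 binds and restrains its activation domain. Stress of DNA or of ribosome assembly weakens that hold, and p53 then activates genes that stop the cell cycle and, through Mdm2 itself, genes that switch p53 off again. Since p53 is controlled largely as a protein, its activity is usually read from its targets more than from its own mRNA. In liver, Cdkn1a is the classical arrest target, and it is known to limit division of hepatocytes.

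Depth differed between the days, with total counts of 38783564 to 54538581 in the day 9 libraries and 7650269 to 9630027 in the day 13 libraries. On a principal component holding 9.44% of the variance, day 13 Eif3m siRNA replicate 2 stood at -36.9, away from the other libraries of its group at 37.6 and 4.68, and day 13 control replicate 3 stood at -52.0, away from 18.0 and 15.3. The 10 genes, Eif3m and the gene lists were refitted without these 2 libraries, and calls of named genes that changed, and counts that moved by over 1.5 times, are given. Both are day 13 libraries, yet calls over all genes at day 9 also changed in that refit, from 1821 to 3050. The sample titles carry one code at day 9 and another at day 13, so the day and what that code stands for cannot be told apart. Eif3m itself had 4.88, 4.78 and 4.71 CPM (counts scaled to library size) in the day 9 Eif3m siRNA libraries, against 45.1, 44.1 and 45.4 CPM in the day 9 controls. It had 2.52, 2.41 and 2.19 CPM in the day 13 Eif3m siRNA libraries, against 39.8, 38.0 and 31.2 CPM in the day 13 controls. The targeted transcript was thus low in all 6 libraries labelled Eif3m siRNA, with a log2 fold change of -3.23 (SE 0.107, edgeR adjusted p = 1.92e-09) at day 9 and -3.94 (SE 0.151, edgeR adjusted p = 2.66e-09) at day 13. Albumin, the main hepatocyte marker, took 7.24% ± 0.176 of counts in Eif3m siRNA and 8.85% ± 0.301 in control livers at day 9, and 9.83% ± 1.73 in Eif3m siRNA and 14.6% ± 0.158 in control livers at day 13 (SD, n = 3 each).

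p53 binds pairs of a short sequence called the half-site, and the promoter of each gene was searched for it to show where such letters lie near the members that moved. Windows of 300 bases, with 250 before the RefSeq start and 50 from it, were available for 9 of the 10 members, Zmat3 being the exception, and came from build GRCm38.p6, which is of another mouse strain than FVB/N. Some members had more than 1 window, which made 11 windows for the 9 members. An exact match to the 10-base p53 half-site on either strand lay in 5 of the 11. These were windows of Cdkn1a, Ccng1, Gadd45a, Mdm2 and Trp53. Another Cdkn1a window, farther along the gene, held no half-site and no pair. Of all 32851 windows of the same length, 8.36% held such a match. A pair of half-sites at most 13 bases apart, with at most 2 mismatches over both, lay in the windows of 3 members, Cdkn1a, Ccng1 and Gadd45a, and in 4.09% of all windows; pairs include exact half-sites and can overlap each other. The stretches below run 5′ to 3′ along each gene's strand, and capitals mark the half-sites. The first pair lies from -51 to -32 relative to the upstream Cdkn1a start (chr17:29090908-29090967, plus strand), with 1 mismatch. Another pair begins at -73 from the same start, with 0 mismatches.

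Cdkn1a: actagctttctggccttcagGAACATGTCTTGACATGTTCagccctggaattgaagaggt

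The Ccng1 pair shown lies from -195 to -176 (chr11:40755442-40755501, minus strand), also with 1 mismatch. Another Ccng1 pair begins at -200, with 2 mismatches.

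Ccng1: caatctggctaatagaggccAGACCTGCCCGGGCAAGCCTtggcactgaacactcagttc

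The single exact half-sites of the other 3 promoters are shown for comparison: Mdm2 (chr10:117710915-117710964, minus strand), Trp53 (chr11:69580264-69580313, plus strand) and Gadd45a (chr6:67037418-67037467, minus strand). In Gadd45a this half-site is also part of pairs from -61 to -31 and from -56 to -31. Each has 2 mismatches, and their other half-sites are not marked below.

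Mdm2: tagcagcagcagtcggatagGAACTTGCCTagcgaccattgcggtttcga

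Trp53: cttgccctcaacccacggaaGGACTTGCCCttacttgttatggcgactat

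Gadd45a: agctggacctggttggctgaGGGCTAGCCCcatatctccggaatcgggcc

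A match is a description of letters and shows no binding. The windows of Mdm4, Btg2, Phlda3 and Plk2 held no exact half-site, which says only that these letters are not within those windows.

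At day 9, 8 of the 10 genes rose in Eif3m siRNA livers, whereas Trp53 and Mdm4 did not pass the test (edgeR's quasi-likelihood test, Benjamini-Hochberg adjusted p under 0.05 over all genes). Of all genes tested, 12.8% were called at day 9, 5.94% as higher and 6.84% as lower. At day 13, 9 genes rose and Mdm4 did not pass, against 23.7% of all genes called, 12.8% as higher and 10.9% as lower. In 8 genes at day 9 and 8 at day 13 every Eif3m siRNA library lay above every control, as in 22.5% and 17.2% of all genes. The median log2 fold change of the 10 genes was 0.91 at day 9 and 1.10 at day 13, beside 0.015 and 0 over all genes. No member was called lower by this test at either day; at an unadjusted p under 0.05 Mdm4 was lower at both days, DESeq2 called it lower at day 13, and limma-voom called no member lower. Summed over the 10 genes, levels were 227 to 249 CPM in Eif3m siRNA and 129 to 144 CPM in control livers at day 9, and 295 to 355 CPM in Eif3m siRNA and 127 to 142 CPM in control livers at day 13.

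**Figure D1:**
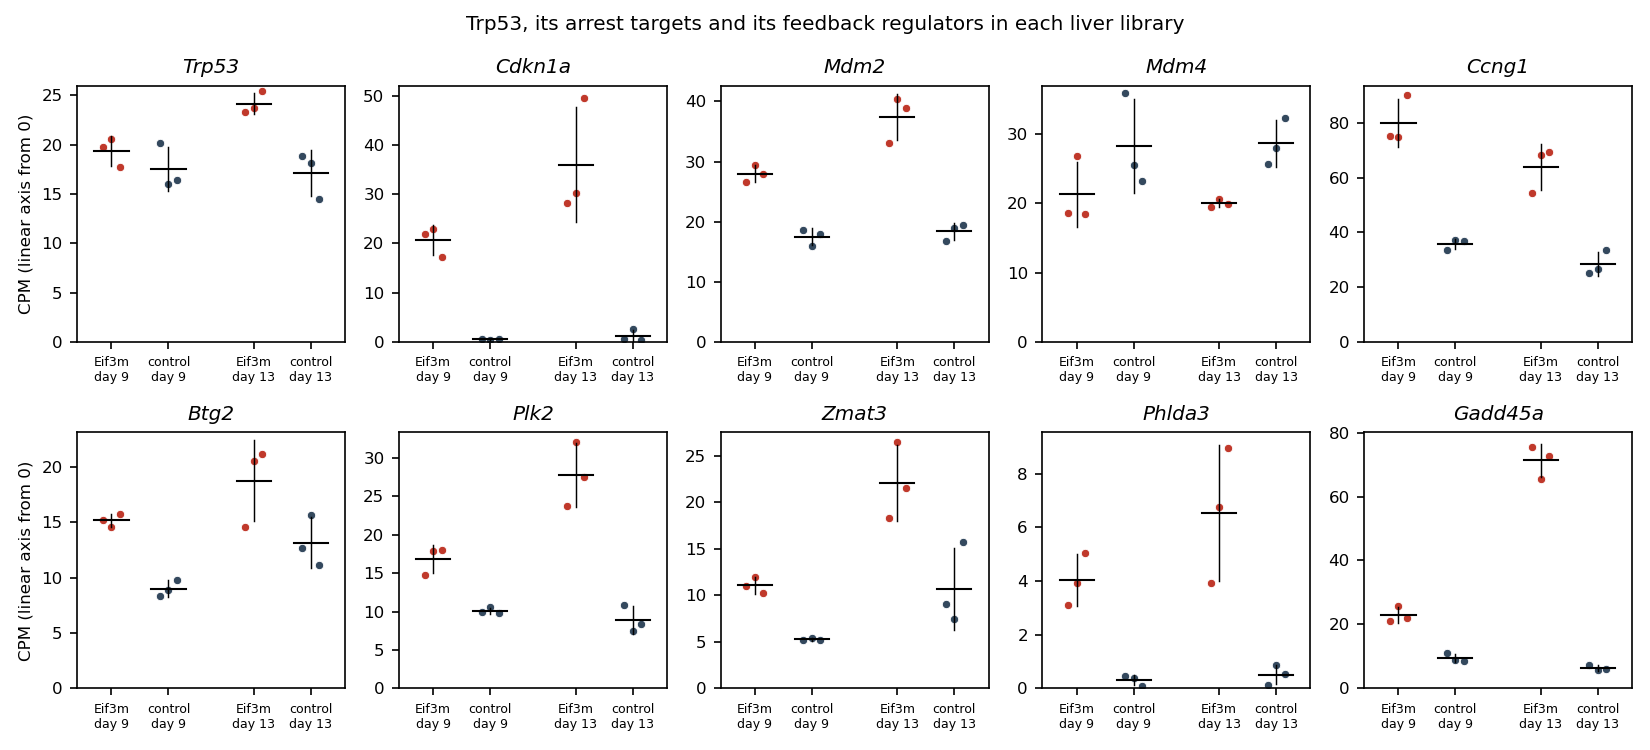
CPM of Trp53 and its 9 arrest and feedback targets in each of the 12 liver libraries, by siRNA and day; points are libraries, bars the group mean with its SD (n = 3). Cdkn1a and Phlda3 lie near 0 in all 6 control libraries, and Mdm4 is the gene whose Eif3m siRNA libraries lie below the controls at day 13.

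Trp53 (ENSMUSG00000059552, mm10 chr11:69580359-69591873, plus strand) had 19.8, 20.6 and 17.7 CPM in Eif3m siRNA and 20.1, 16.03 and 16.5 CPM in control livers at day 9. The groups overlapped, the log2 fold change was 0.14 (SE 0.124, 95% interval -0.12 to 0.41), and the edgeR adjusted p was 0.498. At day 13 it had 23.4, 23.7 and 25.4 CPM in Eif3m siRNA and 18.8, 18.1 and 14.5 CPM in control livers. All 3 Eif3m siRNA libraries were above all controls, and Trp53 rose by 0.50 on the log2 scale (SE 0.137, edgeR adjusted p = 0.0174). This call is lost without day 13 control replicate 3 (0.37, adjusted p = 0.0826), without day 13 Eif3m siRNA replicate 3 (0.45, adjusted p = 0.0804), or when day 13 is fitted on its own 6 libraries (0.49, adjusted p = 0.0618), in edgeR fits whose adjusted p ran over all alternatives from 0.00762 to 0.0856. It is also lost without both libraries that stood apart (0.39, adjusted p = 0.0856). The difference between the days was 0.36 with a 95% interval of -0.04 to 0.75, and edgeR's adjusted p for it was 0.330.

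Of the regulators that hold p53 down, Mdm2 rose at both days and Mdm4 did not pass the test. Mdm2 (ENSMUSG00000020184, mm10 chr10:117688875-117710758, minus strand), the ligase that removes p53 and is also its target, had 26.6, 29.4 and 27.9 CPM in Eif3m siRNA and 18.6, 15.9 and 18.0 CPM in control livers at day 9. Its day 13 levels were 33.1, 40.3 and 39.0 CPM in Eif3m siRNA and 16.8, 19.0 and 19.4 CPM in control livers. Neither pair of groups overlapped, and Mdm2 rose by 0.67 (SE 0.110, adjusted p = 0.00174) at day 9 and by 1.03 (SE 0.120, adjusted p = 5.5e-05) at day 13 in edgeR's test. Its difference between the days, 0.35, did not pass (adjusted p = 0.266).

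Mdm4 (ENSMUSG00000054387, mm10 chr1:132959484-133030561, minus strand), the relative and partner of Mdm2, had 18.6, 26.7 and 18.4 CPM in Eif3m siRNA and 35.9, 25.5 and 23.3 CPM in control livers at day 9, with overlap. At day 13 it had 19.4, 20.6 and 19.9 CPM in Eif3m siRNA and 25.7, 27.9 and 32.3 CPM in control livers, so that every Eif3m siRNA library was below every control, as for 16% of all genes. The log2 fold change was -0.41 (SE 0.174, 95% interval -0.78 to -0.04, adjusted p = 0.145) at day 9 and -0.52 (SE 0.189, 95% interval -0.93 to -0.11, adjusted p = 0.0616) at day 13, neither past edgeR's threshold. The day 13 value passed it without day 9 control replicate 1 (-0.52, adjusted p = 0.0312), without day 9 Eif3m siRNA replicate 2 (-0.53, adjusted p = 0.0319) and in 6 other alternatives, and the edgeR, DESeq2 and voom adjusted p ran from 0.026 to 0.235. Without day 9 control replicate 1, which had the highest Mdm4 of all libraries, the day 9 value was -0.19.

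Among the arrest genes, Cdkn1a (ENSMUSG00000023067, mm10 chr17:29090976-29100727, plus strand), which encodes the inhibitor p21 of cyclin-dependent kinases, had the largest fold change of the 10. It had 21.95, 22.98 and 17.32 CPM in Eif3m siRNA livers at day 9, and 0.566, 0.352 and 0.531 CPM in controls, from counts of 22, 18 and 22. At day 13 it had 28.3, 30.3 and 49.5 CPM in Eif3m siRNA livers, and 0.538, 2.56 and 0.325 CPM in controls, from counts of 4, 18 and 3. Cdkn1a was nearly absent from the control libraries and plentiful in all 6 Eif3m siRNA libraries. The window at its upstream start holds the pair of half-sites shown above, and its other window holds none. Cdkn1a rose by 5.44 (SE 0.406, edgeR adjusted p = 1.67e-05) at day 9 and by 5.07 (SE 0.540, edgeR adjusted p = 1.65e-05) at day 13 on the log2 scale. The small control counts limit the size of this change: without day 13 control replicate 2, the one at 2.56 CPM, the day 13 value was 6.41. The difference between the days, -0.37, had a 95% interval of -1.84 to 1.11. Its exons overlap those of AC167363.2 on the other strand over 273 bases, a gene not analysed here, and with no stated strand setting reads of the 2 could not be told apart there.

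Ccng1 (ENSMUSG00000020326, mm10 chr11:40748552-40755311, minus strand), whose product cyclin G1 joins a phosphatase to Mdm2, had 75.2, 74.9 and 90.2 CPM in Eif3m siRNA and 33.6, 37.1 and 36.7 CPM in control livers at day 9. By day 13 Ccng1 had 54.3, 68.3 and 69.3 CPM in Eif3m siRNA and 25.3, 26.8 and 33.6 CPM in control livers. The groups were apart at both days, and Ccng1 rose by 1.16 at each (SE 0.131 and adjusted p = 0.000161 at day 9, SE 0.139 and adjusted p = 6.85e-05 at day 13, edgeR). Its 95% interval for the difference between the days ran from -0.41 to 0.41.

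Btg2 (ENSMUSG00000020423, mm10 chr1:134075170-134079120, minus strand), an antiproliferative factor that recruits mRNA deadenylases, had 15.2, 14.6 and 15.8 CPM in Eif3m siRNA and 8.31, 8.93 and 9.80 CPM in control livers at day 9. Its day 13 levels were 14.5, 20.6 and 21.1 CPM in Eif3m siRNA and 12.6, 15.7 and 11.2 CPM in control livers, where the lowest Eif3m siRNA library fell among the controls. Btg2 rose by 0.75 (SE 0.147, adjusted p = 0.00502) at day 9 and by 0.52 (SE 0.164, adjusted p = 0.0329) at day 13 in edgeR's test. The day 13 call is lost without any one of day 9 Eif3m siRNA replicate 1 (0.51, adjusted p = 0.0506), day 13 control replicate 1 (0.50, adjusted p = 0.0896), day 13 control replicate 3 (0.40, adjusted p = 0.124), and day 13 Eif3m siRNA replicates 2 (0.44, adjusted p = 0.109) and 3 (0.42, adjusted p = 0.144). It is lost too with day 13 fitted on its own (0.52, adjusted p = 0.110) and without both libraries that stood apart (0.33, adjusted p = 0.245); over all alternatives the adjusted p ran from 0.00738 to 0.245.

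Zmat3 (ENSMUSG00000027663, mm10 chr3:32334792-32366014, minus strand), an RNA-binding zinc finger protein, had 11.013, 11.998 and 10.199 CPM in Eif3m siRNA and 5.14, 5.41 and 5.24 CPM in control livers at day 9. The day 13 libraries had 18.3, 26.4 and 21.6 CPM in Eif3m siRNA and 9.02, 7.41 and 15.7 CPM in control livers. Control replicate 3 was the high one at day 13, yet still below every Eif3m siRNA library. Zmat3 rose by 1.07 (SE 0.203, adjusted p = 0.00427) at day 9 and by 1.03 (SE 0.223, adjusted p = 0.00423) at day 13 in edgeR's test.

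Phlda3 (ENSMUSG00000041801, mm10 chr1:135766119-135769136, plus strand), whose product competes with the kinase Akt for membrane lipids, had 3.12, 3.93 and 5.04 CPM in Eif3m siRNA and 0.463, 0.391 and 0.0965 CPM in control livers at day 9. Day 13 gave 3.92, 6.77 and 8.98 CPM in Eif3m siRNA livers and 0.135, 0.855 and 0.542 CPM in controls, from control counts of 1, 6 and 5. Like Cdkn1a, it was close to the limit of detection in controls and clearly counted after Eif3m siRNA. Phlda3 rose by 3.64 (SE 0.444, adjusted p = 0.000262) at day 9 and by 3.70 (SE 0.659, adjusted p = 0.000426) at day 13 in edgeR's test. With day 9 counts thinned to the day 13 depth, the day 9 value was 4.29. The 95% interval for its difference between the days was wide, from -1.66 to 1.77.

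Plk2 and Gadd45a were the members whose response differed between the days, 2 of 10, against 2.55% of all genes called for that difference, 0.898% with a higher and 1.66% with a lower day 13 effect. Plk2 (ENSMUSG00000021701, mm10 chr13:110395046-110400844, plus strand), a polo-like kinase of the centriole cycle, had 14.8, 17.9 and 18.0 CPM in Eif3m siRNA and 10.0, 10.5 and 9.77 CPM in control livers at day 9. At day 13 it had 23.8, 32.1 and 27.6 CPM in Eif3m siRNA and 10.9, 7.41 and 8.34 CPM in control livers. The groups were apart at both days, and Plk2 rose by 0.74 (SE 0.143, adjusted p = 0.00468) at day 9 and by 1.65 (SE 0.164, adjusted p = 1.57e-05) at day 13 in edgeR's test. The day 13 effect exceeded the day 9 effect by 0.91 (SE 0.217, edgeR adjusted p = 0.045). That difference narrowly passed and was lost in 15 of 21 alternatives: it kept its call without day 13 control replicate 1 (1.08) and without day 13 Eif3m siRNA replicate 1 (1.01), and lost it when any other single library was left out, at 0.80 to 0.95.

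Gadd45a (ENSMUSG00000036390, mm10 chr6:67035096-67037457, minus strand), a stress sensor that binds the replication clamp PCNA and an upstream kinase of p38 and JNK, had 21.1, 25.7 and 21.9 CPM in Eif3m siRNA and 11.0, 8.85 and 8.57 CPM in control livers at day 9. By day 13 Gadd45a had reached 75.7, 65.6 and 72.7 CPM in Eif3m siRNA and 7.27, 5.84 and 5.96 CPM in control livers. The day 13 Eif3m siRNA libraries stood well above those of all other groups. Gadd45a rose by 1.27 (SE 0.128, adjusted p = 7.67e-05) at day 9 and by 3.49 (SE 0.151, adjusted p = 1.19e-08) at day 13 in edgeR's test. The difference between the days, 2.21 (SE 0.198, adjusted p = 0.000376), kept its call in all 21 alternatives run, at 2.09 to 2.34. Its exons overlap those of E230016M11Rik on the other strand over 337 bases; that gene held 1 to 77 counts in a library, against 41 or more for Gadd45a.

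**Figure D2:**
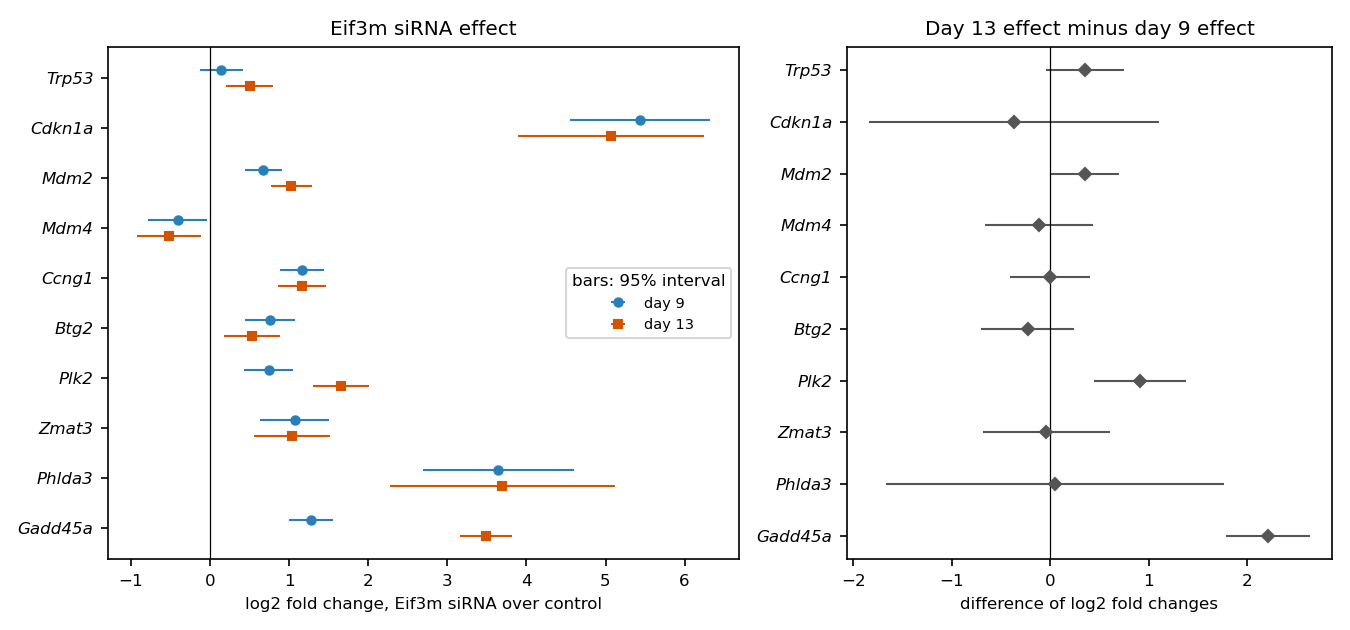
Left, log2 fold change of Eif3m siRNA over control for each of the 10 genes at day 9 and day 13; right, the day 13 effect minus the day 9 effect. Points are edgeR estimates and bars 95% intervals; the interval of the difference lies well above 0 for Gadd45a at 2.21, and Mdm4 has negative estimates at both days.

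Levels of different genes were compared as CPM per kilobase of exon. In controls Ccng1 was the most abundant of the 10, at 10.2 ± 0.548 CPM per kilobase at day 9 and 8.13 ± 1.26 at day 13 (SD, n = 3 each), and Cdkn1a the least, at 0.136 ± 0.0323 and 0.322 ± 0.348, its libraries overlapping those of Phlda3 and, at day 13, also those of Zmat3. In Eif3m siRNA livers Cdkn1a came after Ccng1 and Gadd45a at both days, at 5.84 ± 0.848 CPM per kilobase at day 9, where it overlapped Btg2, Mdm2 and Trp53, and 10.1 ± 3.30 at day 13. Ccng1 led at day 9 with 22.8 ± 2.49 CPM per kilobase, ahead of Gadd45a with 13.0 ± 1.38. At day 13 the order of these 2 was the other way round, with Gadd45a at 40.4 ± 2.95 CPM per kilobase and Ccng1 at 18.2 ± 2.40, and their libraries did not overlap. Mdm2, Btg2, Plk2 and Trp53 followed in Eif3m siRNA livers at day 13, and no neighbours among these 4 were separated beyond the spread of their libraries.

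Within the day 13 Eif3m siRNA group, replicate 1 was the lowest of its group in 9 of the 10 genes and the highest in Gadd45a. Over all 12 libraries, with each day's mean removed, log2 levels of Mdm2 and Phlda3 followed Cdkn1a most closely among the members (Pearson r = 0.945 for each), then Ccng1 (0.93) and Btg2 (0.915), while Mdm4 ran against it (-0.736). Outside the 10 genes, the 5 with the highest r were Lrpprc (0.983), Slc25a33 (0.982), Copa (0.981), Ifrd1 (0.98) and Serp1 (0.976). These are descriptions over libraries that share the siRNA contrast, and the search outside the members took genes that averaged 5 CPM or more.

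Other genes of the pathway were taken from lists by role. Of 27 tested regulators of p53, 5 rose at day 9 and 12 rose at day 13, and the other 22 and 15 did not pass. Those called made up 18.5% at day 9 and 44.4% at day 13, beside 12.8% and 23.7% of all genes. The median log2 fold change of the regulators was 0.32 at day 9 and 0.48 at day 13. Without the 2 libraries that stood apart, 9 rose at day 9, in a fit where calls over all genes at day 9 rose too. Npm1, the nucleolar protein nucleophosmin, averaged 176 ± 6.60 CPM in Eif3m siRNA and 108 ± 5.12 CPM in control livers at day 9, and 215 ± 14.5 CPM in Eif3m siRNA and 83.2 ± 11.6 CPM in control livers at day 13 (SD, n = 3 each). It rose by 0.71 and 1.37 at the 2 days. Its difference between the days, 0.66, passed edgeR's test (adjusted p = 0.0455). Npm1 was the 1 regulator of 27 called for that difference, beside 2.55% of all genes. Without the 2 libraries it kept this call (0.62, edgeR adjusted p = 0.042). Rpl23, a ribosomal protein able to bind Mdm2, rose by 0.66 at day 9 and 1.43 at day 13, and the ribosome assembly factors Bop1 (0.33 and 0.89) and Mybbp1a (0.61 and 1.03) rose at both days, with edgeR adjusted p of at most 0.0444. The Rpl23 difference between the days, 0.77, did not pass edgeR's test (adjusted p = 0.0596). Without the 2 libraries it was 0.75 and passed (edgeR adjusted p = 0.0262).

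Of 36 other tested p53 targets of arrest, repair and metabolism, 8 rose and 4 fell at day 9 and 11 rose and 5 fell at day 13, with medians of 0.09 and 0.17. The shares called were 33.3% and 44.4%, beside 12.8% and 23.7% of all genes. Gdf15, a secreted stress hormone, averaged 6.50 ± 1.37 CPM in Eif3m siRNA and 2.11 ± 0.308 CPM in control livers at day 9, and 17.7 ± 1.42 CPM in Eif3m siRNA and 1.21 ± 0.593 CPM in control livers at day 13 (SD, n = 3 each). It rose by 1.62 and 3.90, and the difference between the days, 2.28, passed edgeR's test (adjusted p = 0.00731), as that of Gadd45a did. Trp53cor1, a noncoding RNA gene near Cdkn1a, had 35, 75 and 34 counts in Eif3m siRNA and 3, 2 and 2 counts in control livers at day 9. At day 13 it had 7, 9 and 7 counts in Eif3m siRNA livers and 0 in each control, which makes it at least 6.79-fold higher when 3 counts over the control group are taken as the floor. Sesn2, which restrains mTORC1, rose by 1.18 and 1.29. Abhd4, a lipase, fell by 0.68 at day 13 and had -0.33 at day 9 (edgeR adjusted p = 0.0532), or -0.35 without the 2 libraries (adjusted p = 0.0229). Sesn1, the relative of Sesn2 and likewise a p53 target, fell by 0.58 at day 9 and 0.49 at day 13; it was named after its values were seen, and its day 13 call is lost without the 2 libraries (-0.46, edgeR adjusted p = 0.0974).

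Of 18 apoptosis targets, 9 rose and 1 fell at day 9, and 6 rose at day 13, when the other 12 did not pass. Medians were 0.46 and 0.09, and 55.6% and 33.3% were called, beside 12.8% and 23.7% of all genes. The receptor gene Eda2r averaged 6.73 ± 1.61 CPM in Eif3m siRNA and 0.214 ± 0.0241 CPM in control livers at day 9, and 4.17 ± 2.02 CPM in Eif3m siRNA and 0.165 ± 0.0453 CPM in control livers at day 13 (SD, n = 3 each). It rose by 4.95 and 4.62. The death receptor Tnfrsf10b (2.40 and 2.92), the nuclease Aen (1.67 and 1.83) and the autophagy-linked Trp53inp1 (2.28 and 2.74) rose at both days as well; the day 13 value of Tnfrsf10b was 2.29 without the 2 libraries. Bbc3, which encodes the BH3-only protein Puma, was the 1 that fell at day 9, by 1.75, and had -0.07 at day 13 (edgeR adjusted p = 0.914). Its difference between the days, 1.67, did not pass edgeR's test (adjusted p = 0.073). Bbc3 too was named after its values were seen.

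**Figure D3:**
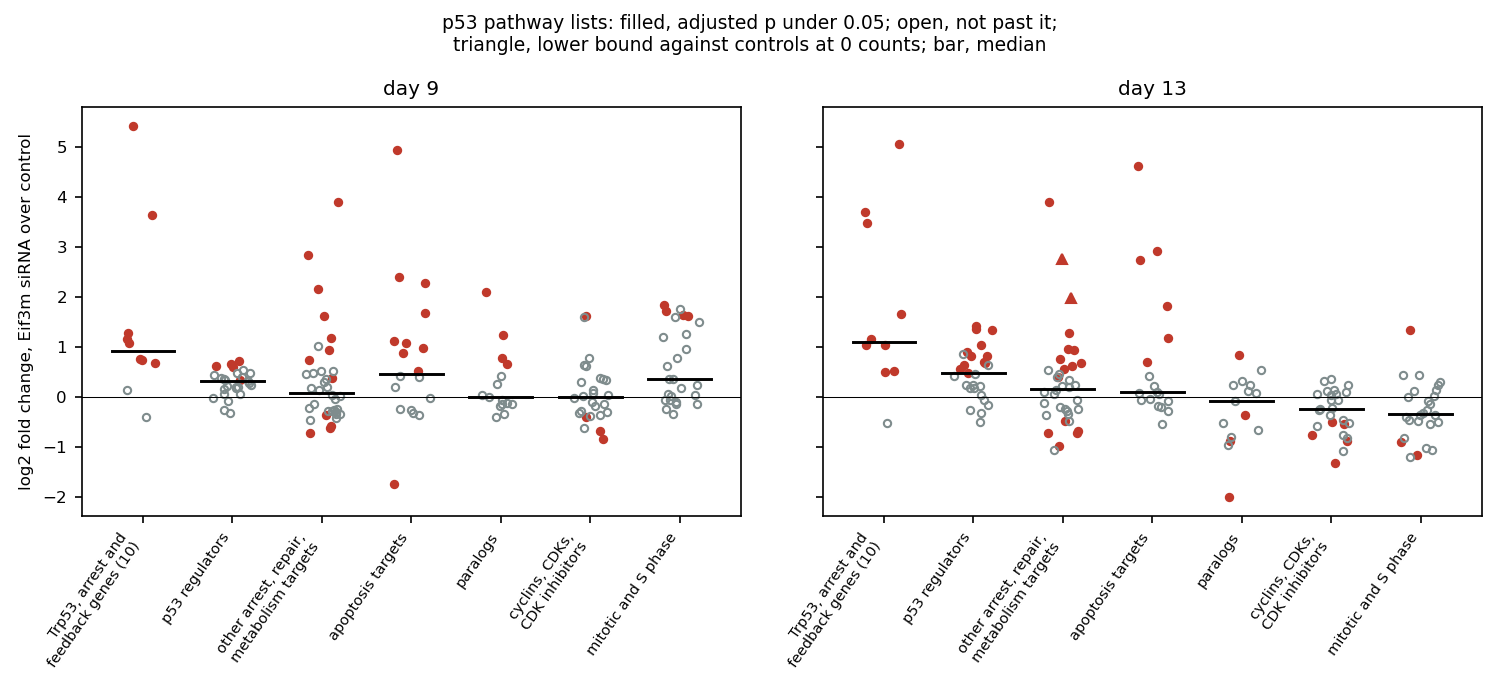
Log2 fold change of Eif3m siRNA over control for the 10 genes and for lists of p53 regulators, other targets, paralogs, cyclins and mitotic genes, at day 9 and day 13. Each point is a gene, filled where edgeR's adjusted p was under 0.05; triangles are lower bounds against controls at 0 counts and bars are medians, highest for the 10 genes at 0.91 and 1.10.

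Of 15 tested paralogs of the 10 genes, 4 rose at day 9, and 1 rose and 3 fell at day 13, with medians of -0.01 and -0.08. At each day 26.7% were called, beside 12.8% of all genes at day 9 and 23.7% at day 13. Gadd45b had 0.700, 0.783 and 1.36 CPM in Eif3m siRNA and 0.668, 0.762 and 0.676 CPM in control livers at day 9, and 0.280, 0.556 and 0.657 CPM in Eif3m siRNA and 2.29, 2.14 and 1.84 CPM in control livers at day 13. Gadd45b fell by 2.01 at day 13, on 2 to 17 counts in a library, and its difference between the days was -2.43 (edgeR adjusted p = 0.0267), opposite in sign to that of Gadd45a. Gadd45g rose by 2.10 at day 9 (adjusted p = 0.0432) and had -0.97 at day 13 (adjusted p = 0.372), with the difference not passing edgeR's test (adjusted p = 0.107). Plk3 rose by 1.25 and 0.83. Tob1 and Tob2, of the Btg2 family, rose at day 9 by 0.65 and 0.77, and the Tob2 effect was lower at day 13, by 0.86 (adjusted p = 0.046, edgeR). Gadd45g was named after its values were seen, as the remaining gene of its family.

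**Figure D4:**
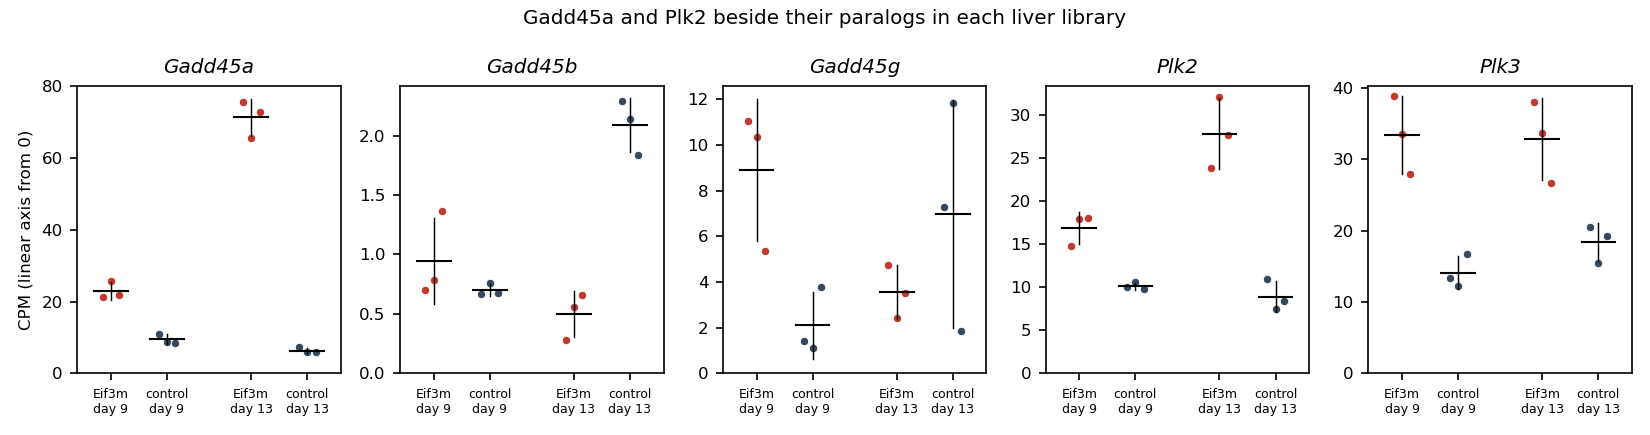
CPM of Gadd45a, its paralogs Gadd45b and Gadd45g, Plk2 and its paralog Plk3 in each of the 12 libraries, on separate linear axes from 0; points are libraries and bars the group mean with its SD (n = 3). At day 13 the Gadd45a libraries lie at 65.6 to 75.7 CPM after Eif3m siRNA, and those of Gadd45b lie below the controls.

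p21 restrains cyclins and the kinases they activate. Of 26 tested cyclins, cyclin-dependent kinases and their inhibitors, 1 rose and 3 fell at day 9, and 5 fell at day 13, with medians of -0.01 and -0.25. Those called made up 15.4% at day 9 and 19.2% at day 13, beside 12.8% and 23.7% of all genes, and most did not pass. Without the 2 libraries that stood apart, 2 rose and 6 fell at day 9 and 3 fell at day 13. Calls over all genes at day 9 rose in that fit too. Ccnd1, which encodes cyclin D1, averaged 91.7 ± 40.7 CPM in Eif3m siRNA and 114 ± 11.4 CPM in control livers at day 9, and 52.3 ± 1.32 CPM in Eif3m siRNA and 131 ± 25.4 CPM in control livers at day 13 (SD, n = 3 each). It fell by 1.32 at day 13 and had -0.32 at day 9. Ccnd3 fell by 0.40 and 0.54, the inhibitor gene Cdkn2d fell by 0.84 at day 9, and Ccna2, for cyclin A2, rose by 1.61 at day 9. Of 26 tested mitotic and S phase genes, 4 rose at day 9, and 1 rose and 2 fell at day 13, with medians of 0.36 and -0.34. These were 15.4% and 11.5% of the list, beside 12.8% and 23.7% of all genes. Without the 2 libraries 8 rose at day 9, again with more calls over all genes. Mki67, the gene of the proliferation marker Ki-67, rose by 1.64 at day 9 and had 0.02 at day 13. Top2a (1.83) and Tpx2 (1.72) rose at day 9, from control means of 0.778 and 0.228 CPM. The replication helicase gene Mcm7 rose by 1.34 at day 13, when Mcm4 (-0.90) and Rrm2 (-1.16) fell. Single calls of Mcm4 and Rrm2 without the 2 libraries are not given. For the difference between the days, 0 of 26 genes were called in each of these lists, beside 2.55% of all genes. By edgeR its adjusted p was 0.0968 for Mki67 and 0.149 for Ccnd1.

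Btg2, Plk2 and Gadd45a also count among immediate early genes, which answer many signals within a short time. Of 17 tested genes of that list, those 3 included, 6 rose and 2 fell at day 9, and 7 rose and 2 fell at day 13, or 4 and 1 without the 2 libraries that stood apart. In the main fit 47.1% and 52.9% were called, beside 12.8% and 23.7% of all genes. Jun rose by 0.93 and 1.28 and Atf3 by 1.64 and 1.89, both transcription factors. Egr1, named after its values were seen, had 13.5, 5.28 and 8.88 CPM in Eif3m siRNA and 52.7, 18.1 and 65.3 CPM in control livers at day 9, and 18.6, 71.5 and 79.7 CPM in Eif3m siRNA and 4.31, 4.99 and 2.38 CPM in control livers at day 13. By edgeR it fell by 2.30 at day 9 (adjusted p = 0.0426) and rose by 3.90 at day 13 (adjusted p = 0.00624). The difference between the days was 6.2 (edgeR adjusted p = 0.0186). These calls are all lost without the 2 libraries (edgeR adjusted p = 0.0679, 0.0847 and 0.0745).

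Markers of other liver cells were read in the same libraries, and in bulk tissue fewer cells of a type and less RNA per cell cannot be told apart. Of 10 Kupffer cell markers, 1 rose and 5 fell at day 9, and 1 rose and 7 fell at day 13, or 1 and 4 without the 2 libraries that stood apart. In the main fit 60% and 80% were called, beside 12.8% and 23.7% of all genes. Clec4f fell by 2.00 and 1.69, and Folr2 by 1.54 and 0.95. The listed marker C6 rose by 1.75 at day 13 (edgeR adjusted p = 0.000129) and had 0.23 at day 9 (adjusted p = 0.491). Vsig4 fell by 1.79 at day 9 and 1.06 at day 13. Its day 13 call is lost without the 2 libraries (-0.88, edgeR adjusted p = 0.151). The summed level of the list was 516 to 581 CPM in Eif3m siRNA and 465 to 579 CPM in control livers at day 9, and 292 to 382 CPM in Eif3m siRNA and 493 to 545 CPM in control livers at day 13. The iron exporter gene Slc40a1, which rose at day 9, made up 65.3% of that sum in Eif3m siRNA and 48.6% in control livers at day 9. Without it the sum was 175 to 208 CPM in Eif3m siRNA and 256 to 307 CPM in control livers at day 9, and 113 to 191 CPM in Eif3m siRNA and 210 to 275 CPM in control livers at day 13.

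Of 12 tested monocyte and infiltrating macrophage markers, 3 rose at day 9 and 2 fell at day 13, or 1 without the 2 libraries. In the main fit 25% and 16.7% were called, beside 12.8% and 23.7% of all genes. Lyz2 rose by 1.26 at day 9 and fell by 0.74 at day 13, with a difference of -2.00 (edgeR adjusted p = 0.000664). Ccr2 (1.24) and Gpnmb (2.15) rose at day 9, and Plac8 fell by 0.62 at day 13. Without the 2 libraries the Plac8 call is lost (-0.54, edgeR adjusted p = 0.105). So is the call for the Ccr2 difference between the days (edgeR adjusted p = 0.046, or 0.0658 without the 2 libraries). The whole list summed to 2211 to 2536 CPM in Eif3m siRNA and 1716 to 2161 CPM in control livers at day 9, and to 1515 to 1840 CPM in Eif3m siRNA and 1860 to 2290 CPM in control livers at day 13. Fibronectin (Fn1), which hepatocytes also make, was 91% to 95.5% of each group's sum and was not called at either day (edgeR adjusted p = 0.207 and 0.193). Without it the sum was 151 to 169 CPM in Eif3m siRNA and 75.7 to 92.3 CPM in control livers at day 9, and 120 to 152 CPM in Eif3m siRNA and 163 to 219 CPM in control livers at day 13.

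Of 10 hepatocyte markers, 1 fell at day 9, or 2 with Alb when the 2 libraries were left out. At day 13, 3 rose and 3 fell, or 2 and 3 without the 2 libraries. Those called were 10% at day 9 and 60% at day 13, beside 12.8% and 23.7% of all genes. Ttr, for transthyretin, fell by 0.72 and 0.63, and Alb and Cyp2e1 fell by 0.66 and 0.75 at day 13, when Cps1 (0.74), Tat (1.21) and Serpina1c (0.65) rose. Cps1 kept its call without the 2 libraries (0.82, edgeR adjusted p = 0.00451). Single calls of Tat and Serpina1c in that refit are not given. Of 8 endothelial and 9 stellate markers, 1 of each rose at day 9 (12.5% and 11.1%, beside 12.8% of all genes) and 3 of each fell at day 13, or 1 and 2 without the 2 libraries. The day 13 shares were 37.5% and 33.3%, beside 23.7% of all genes. Of 6 cholangiocyte markers, Sox9 rose by 2.02 at day 13, which is 16.7% of that list. Of 5 erythroid markers, 3 fell at day 13, when they summed to 704 to 1851 CPM in Eif3m siRNA and 2106 to 5963 CPM in control livers. By edgeR, DESeq2 and limma-voom alike, 0 of 8 T and NK cell, 0 of 5 B cell and 0 of 4 neutrophil markers were called at either day; at an unadjusted p under 0.05 edgeR gave 1, a B cell marker at day 9. No listed marker was at 0 in every library. The part of these markers in the results for the p53 genes was not tested.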

How the data were processed

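The authors deposited estimated counts per Ensembl gene for 12 libraries. Tools listed in the submitters' processing notes are RSEM 1.3.0 and STAR 2.5.3a, with build mm10. Neither an annotation release nor a strand setting is given in the sources used here. Per the labels' protocols, RNA from ground liver went through KAPA mRNA capture. Values were whole numbers and were used as rounded expected counts. Symbols, positions and exon lengths came from GENCODE M21, and promoters from RefSeq.

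With edgeR 4.0.16, genes were filtered by filterByExpr at a minimum count of 10 and scaled by TMM, and all 12 libraries were fitted in a model of 4 groups by the quasi-likelihood test, two-sided, adjusted over 14248 genes. CPM used the TMM factors. Alternatives were other scalings, filters, a replicate block, each day alone, each library left out, DESeq2 1.42.0, limma 3.58.1 voom, thinned day 9 counts and omission of 2 libraries. The procedure was tested on simulated data. Intervals cover the fitted spread.

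The members and lists were chosen with earlier results of these data known. Named list genes were the up to 4 called with the smallest p in a list. For the endothelial, stellate and erythroid lists these genes are not named, and only counts or sums are given. Sesn1, Bbc3, Gadd45g, Egr1, Mcm4, Rrm2, Tat, Serpina1c, Slc40a1 and Fn1 were named besides.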

Additional observations from a re-analysis of the deposited data

Results flagged for a closer look

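The Eif3m siRNA effect on Gadd45a differed between the days by 2.21 on the log2 scale (day 13 minus day 9, SE 0.198, edgeR adjusted p = 0.000376), a call kept in all 21 alternatives run. The effect on Plk2 differed by 0.91 in the same test (SE 0.217, edgeR adjusted p = 0.045), a call lost in 15 of 21 alternatives, with an adjusted p of up to 0.124.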

How the results depend on the processing

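In all alternatives run, no fold change of the 10 genes changed sign at day 9 or at day 13. Their count of calls for the difference between the days, 2, was 1 with upper-quartile scaling, with the replicate block, with limma-voom, with day 9 counts thinned to the day 13 depth, and without the 2 day 13 libraries that stood apart; it was 1 to 2 when single libraries were left out. Over all genes, the 364 calls for that difference became 117 with the replicate block, 991 with DESeq2, 235 with thinned counts, and 130 to 508 when single libraries were left out. Upper-quartile scaling gave 86 higher and 290 lower calls, against 128 higher and 236 lower. The 1821 calls at day 9 became 3412 with each day fitted alone, 2740 with limma-voom, 3050 without the 2 libraries that stood apart, and 884 to 2250 without single libraries. The 3377 calls at day 13 became 2014 with each day alone. The cause of these shifts was not tested.

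Differences between the days near 0 changed sign: Ccng1 was -0.05005 with upper-quartile scaling and -0.0287 with a mean of at least 5 CPM. Zmat3 was 0.0022 with the replicate block, 0.0112 with limma-voom and 0.21 without the 2 libraries. Cdkn1a was 0.0135 with limma-voom and 0.17 with thinned counts, and Phlda3 was -0.0807 and -0.62 under those settings. Without single libraries they ran from -0.90 to 0.97 for Cdkn1a, -0.33 to 0.0784 for Mdm4, -0.0773 to 0.12 for Ccng1, -0.24 to 0.34 for Zmat3 and -0.37 to 0.56 for Phlda3.

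Correlations between libraries of the same replicate number ran from -0.158 to 0.158 at day 9 and -0.0671 to 0.0811 at day 13. Those between different numbers ran from -0.143 to 0.225 and from -0.12 to 0.13. With 3 libraries a group these values cannot settle whether the numbers mark pairs. With the replicate block 1216 genes were called at day 9 and 2681 at day 13, among them 8 members at each day. The day 13 call of Btg2 was lost in that fit (0.51, edgeR adjusted p = 0.0541). Counts of 1 to 22 for Cdkn1a and Phlda3 in controls limit the size of their fold changes. Thinning, the omission of 2 libraries and marker sums without a gene were chosen after seeing the data.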
